A study of Mus musculus with 4 samples.

Results

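The Myc locus and its distal enhancers were followed in H3K27ac profiles of sorted mouse bone marrow cells. H3K27ac, the acetylation of lysine 27 of histone H3, marks active promoters and enhancers. Members were the gene Myc and every deposited peak that overlapped the interval of chromosome 15 from 61.0 to 64.5 Mb (build mm10). This gave 17 of 19148 peaks in the list labelled BN1 (the BN1 list) and 59 of 28343 peaks in the one labelled control (the control list). Myc is 1 of 21887 protein-coding genes of the annotation. The BN1 cells carry the fusion BRD9-NUTM1 (genotype cKit(+) BRD9-NUTM1), and the control cells have no fusion in their label (genotype cKit(+)). Both groups come from C57BL/6 bone marrow and are labelled CD45.2+, without an age, and both were processed by fanChIP, a native chromatin immunoprecipitation. Each group had 1 ChIP library, and the 2 input libraries were not analysed here. There is therefore no replicate error, no test was possible, and every difference describes these 2 libraries only.

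The identity of the libraries needs care. Peaks carry names that begin with BM in the BN1 list and with BRNU in the control list, which reads against the sample titles, and the protocol text names BN1 cells for all samples, the controls too. Groups follow the titles, so each direction is tied to the label. How the fusion was introduced into the cells, and whether animals were pooled, is not stated in the labels. In bulk cells, fewer cells of a type and less acetylation per cell cannot be told apart. The files give no counts of reads, so depth is unknown. Over the whole genome the BN1 list covered 19.1 Mb and the control list covered 31.0 Mb, a 1.62-fold difference against which the values of the locus are read.

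Myc encodes a basic helix-loop-helix transcription factor that dimerises with MAX, binds E-box DNA and drives growth, ribosome production and cell division. Its gene lies in a large stretch with few other protein-coding genes and is controlled by enhancers far from it. Downstream of Myc lies Pvt1, a long non-coding RNA gene whose promoter can compete with that of Myc for enhancers. About 1.7 Mb from Myc lies the blood enhancer cluster, a group of enhancer modules that act on Myc in blood stem cells, progenitors and myeloid leukaemias. A different enhancer, about 1.3 Mb downstream, answers to NOTCH1 in developing T cells. NUTM1 fusions with bromodomain proteins are known in NUT carcinoma to form broad acetylated domains, and Myc is among the genes they sustain there.

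Acetylation of the window was sparser in the BN1 list. Its 17 peaks covered 15638 bp, or 0.447% of the 3.5 Mb, whereas the 59 peaks of the control list covered 57332 bp, or 1.64%. The control list was thus 3.47 times as long in peaks and 3.67 times in covered length, beyond the factors of 1.48 and 1.62 between the whole lists. Per Mb of each list's covered length the window held 817.7 bp labelled BN1 and 1848 bp labelled control. Peak width differed little, with a median of 623 bp labelled BN1 and 681 bp labelled control, so the difference lay in the number of peaks. Window peaks were of middling strength, with a median fold enrichment of 6.02 in the BN1 list (whole list 6.65) and of 6.18 in the control list (whole list 6.57). Fold enrichment here is the authors' value at the summit of each peak, used only within its own list.

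Sharing was one-sided. A peak was called shared where it overlapped a peak of the other list by at least 1 bp. Of the window peaks, 10 of 17 were shared in the BN1 list (58.8%, exact 95% interval 32.9 to 81.6), close to the 62.6% of that whole list. In the control list 11 of 59 were shared (18.6%, 9.69 to 30.9), against 41.2% of that whole list. These intervals cover counting error only, and neighbouring peaks are not independent. The 17 BN1 peaks also limit how many of the 59 control peaks can be shared. The control share, and the distances that follow, therefore in part restate the difference in peak counts. Unshared peaks of the BN1 list lay a median of 7.02 kb from the nearest peak of the other list, and those of the control list lay 63.1 kb from it. Over the whole lists the same distances were 16.0 kb for BN1 and 18.4 kb for control. The unshared control peaks of the Myc window thus lay farther from BN1 peaks than unshared control peaks did in general.

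**Figure D1:**
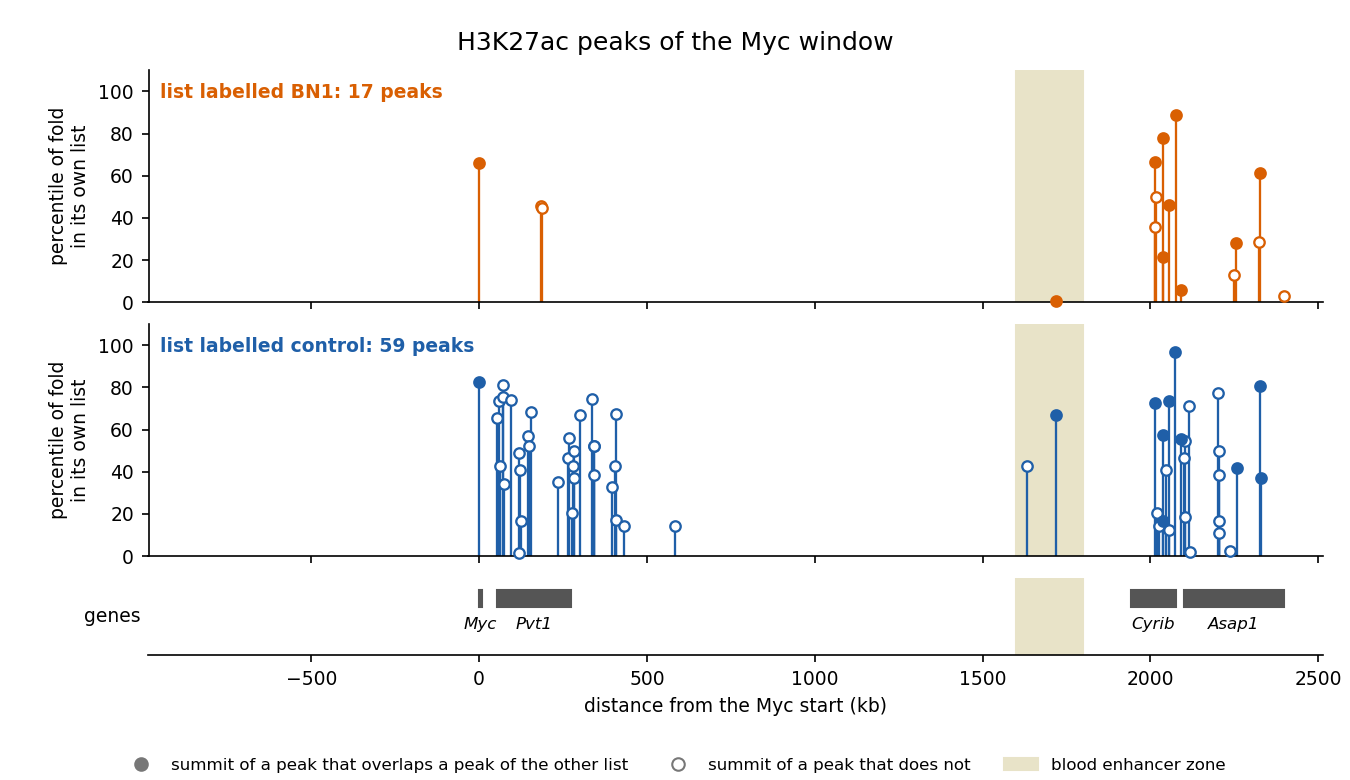
Summit of every H3K27ac peak of the window by distance from the Myc start (kb), with height as the percentile of its fold enrichment within its own list, for the BN1 list (above) and the control list (below). Between Myc and the end of the shaded blood enhancer zone there are 4 peaks in the BN1 list and 35 in the control list, and 33 of those control peaks are open, that is, not shared. Of the whole control list 58.8% of peaks were not shared.

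The window fell into 2 parts. From its start to the end of the blood enhancer zone, which holds Myc, Pvt1 and the enhancers, the BN1 list had 4 peaks (3798 bp) and the control list had 35 (31947 bp), an 8.75-fold difference in peaks. In the remainder, which holds Cyrib and Asap1, the counts were 13 peaks (11840 bp) labelled BN1 and 24 peaks (25385 bp) labelled control, a 1.85-fold difference. Most of the difference in peaks lay in the first part. The 975.34 kb upstream of Myc carried no peak in either list. The peaks nearest to the window on that side, both shared, lay 175.0 kb before it. On the other side the nearest peak lay 1290 kb after the window in the BN1 list (641 bp, fold enrichment 8.45) and 41.5 kb after it in the control list (1126 bp, 4.05).

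Myc (chr15:61985341-61990361, mm10) had 1 peak at its start in each list, the only peak within 10 kb of the gene. The peak of the BN1 list was 1808 bp wide (chr15:61984467-61986274) and reached from -0.87 to 0.93 kb of the start. The peak of the control list was 4443 bp wide (chr15:61984104-61988546) and reached from -1.24 to 3.2 kb. The BN1 peak lay wholly inside the control peak and took up 40.7% of it, so the control peak was mainly longer on the gene side, by 2272 bp, and by 363 bp upstream. Of the gene body itself 934 bp were covered in the BN1 list and 3206 bp in the control list.

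The summits at Myc were 825 bp apart, at -0.21 kb in the BN1 list and at 0.61 kb in the control list. The authors' fold enrichment was 9.71 (−log10 q 24.9) in the BN1 peak, at percentile 66.2 of its list. It was 14.1 (−log10 q 39.2) in the control peak, at percentile 82.5 of its list. The q-value is the peak's p-value after the caller's correction, so a larger −log10 q marks a firmer call. By width the peaks stood higher, at percentile 86.1 in the BN1 list and 98.3 in the control list, so the Myc peak was among the widest of the control list. Both peaks were thus well above the weakest calls of their lists.

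Acetylated length of a gene was taken as the bp under peaks from 10 kb before to 10 kb after it. For Myc the ratio of control over BN1 was 2.46 in bp. A gene was called longer where it was at least 2 times as long in 1 list, and 33.9% of the 13606 protein-coding genes with a region were called longer in control by this rule, so the call at Myc is a common one. Expressed per Mb of each list's covered length, Myc had 94.5 bp labelled BN1 and 143 bp labelled control, a ratio of 1.51 that did not pass the rule, while 22.8% of genes did. Among those genes Myc ranked 5146 by length in the BN1 list and 2405 in the control list.

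Pvt1 (chr15:62037986-62260215), which starts 52.6 kb after the start of Myc, showed the widest gap of the window. The BN1 list had 2 peaks in the gene (1307 bp, 0.588% of its length) and the control list had 17 (16556 bp, 7.45%). None of the 19 overlapped a peak of the other list, beside 37.4% of peaks unshared in the whole BN1 list and 58.8% in the whole control list. With only 2 BN1 peaks in the gene, few of the 17 control peaks could have been shared. Within 10 kb of the gene the lengths were 1307 bp labelled BN1 and 19113 bp labelled control, a 14.6-fold difference. Among lncRNA genes with a region 42.6% were called longer in control in bp and 35.1% per Mb, where Pvt1 was still 9.01-fold longer (68.3 bp per Mb labelled BN1, 616 labelled control). The direction is thus common and its size at Pvt1 is not described by that count. By length under peaks Pvt1 ranked 494 of 12727 lncRNA genes in the BN1 list and 5 in the control list, a rank that its length of 222230 bp favours.

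The start of Pvt1 was acetylated in the control list only. A peak of 2560 bp (chr15:62037653-62040212, fold enrichment 8.96) spanned it, followed by a peak of 3232 bp (chr15:62042245-62045476, fold enrichment 11.0) and one of 681 bp. Joined across gaps of up to 5 kb, these 3 peaks formed a domain with 6473 bp covered, the longest of the window and rank 532 of the 17536 domains of that list, ahead of the Myc peak at rank 1160. In the BN1 list no peak was called within 1000 bp of the Pvt1 start, and the Myc peak ranked 3275 of 13484 domains. The longest BN1 domain of the window lay in Asap1, with 2847 bp covered at rank 1279.

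Inside Pvt1 the control peaks formed clusters. Those with the highest fold enrichment lay 71.02 kb (13.5) and 72.04 kb (11.6) from the Myc start, followed by a single peak at 94.4 kb (11.1), and others lay near 120.08, 154.0 and 267.31 kb. Their widths ran from 265 to 3232 bp with a median of 1040 bp, and their −log10 q from 1.59 to 36.6 with a median of 10.1. Of the 17 peaks, 9 had a −log10 q of at least 10. They thus ranged from firm calls to one near the lowest value of that list (1.32).

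The 2 BN1 peaks in Pvt1 lay at a place of their own. They stood 184.34 and 186.39 kb from the Myc start (chr15:62169575-62170518 and chr15:62171452-62171814). Their widths were 944 and 363 bp and their fold enrichments 6.15 and 6.02, at percentiles 45.6 and 44.6 of the list. Both fell into a stretch without control peaks, between the one that ends at 154.3 kb and the one that starts at 234.86 kb. The nearest control peak was 29.9 kb away from the first of them. A single site inside Pvt1 was therefore called in the BN1 list and not in the other.

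**Figure D2:**
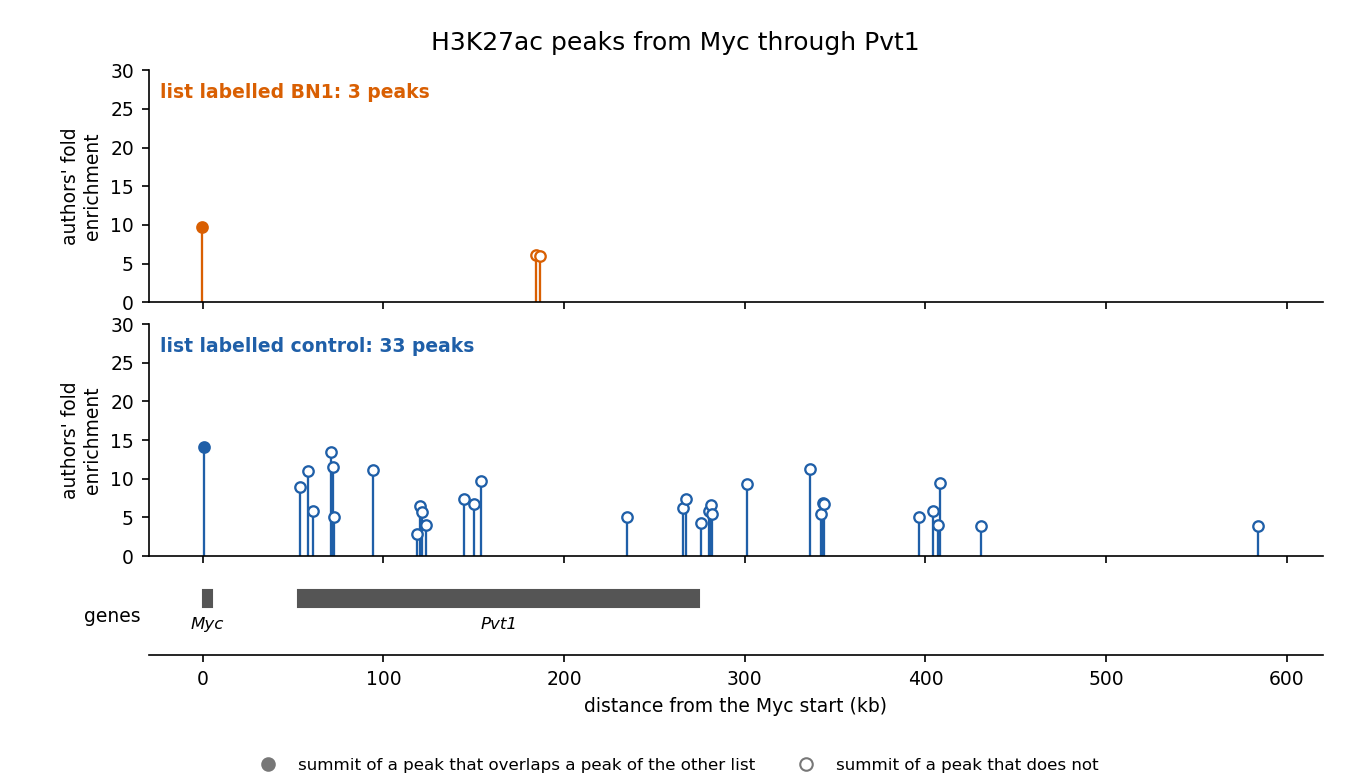
Summits of the H3K27ac peaks from just before Myc to beyond the control peak at 584.06 kb, by the authors' fold enrichment (heights may be compared within a panel, not between panels), for the BN1 list (above) and the control list (below). The BN1 list has the Myc peak and 2 peaks near 184.34 kb, while the control peaks run from 54.07 to 584.06 kb beyond the Myc peak.

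Beyond Pvt1 the control peaks went on and the BN1 peaks stopped. Between the end of Pvt1 and the blood enhancer zone, a stretch of 1325.1 kb, there was no peak in the BN1 list and there were 15 (8966 bp) in the control list. These 15 lay between 275.71 and 584.16 kb from the Myc start, in a part with few annotated genes, and the strongest were at 335.98 kb (fold enrichment 11.2), 407.82 kb (9.44) and 301.46 kb (9.28). Their median width of 454 bp and median fold enrichment of 5.80 were below those of the 17 control peaks in Pvt1 (1040 bp, 6.79).

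These peaks joined those of Pvt1 into 1 series of neighbouring unshared peaks. From the start of Pvt1 to the first peak of the blood enhancer zone, 33 neighbouring control peaks over 1.58 Mb had no overlap with a BN1 peak. This span takes in a stretch of 1.05 Mb without control peaks, and only the last of the 33 lies beyond it. The BN1 pair in Pvt1 lies within the span, between control peaks. Few BN1 peaks were there to overlap, so the series in part restates their number. Of the 5431 series of neighbouring unshared peaks in the control list, whose median length was 2 peaks, 3 were at least as long, this one included, and the longest held 36. The longest such series between Myc and the end of the blood enhancer zone in the BN1 list was the pair in Pvt1. With the control list limited to its top 19148 peaks by −log10 q, 24 neighbouring peaks were unshared over the same stretch. With each list limited to its 10000 firmest peaks there were 7, and 23 other series were longer.

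A long stretch without peaks separated Pvt1 and its surroundings from the blood enhancers. It was 1.53 Mb long in the BN1 list (chr15:62171815-63704110) and 1.05 Mb long in the control list (chr15:62569502-63616302). Such lengths were rare but not singular, with 326 of 19119 peak-free stretches at least as long in the BN1 list and 486 of 28294 in the control list. The place of the T cell enhancer, taken as 1.3 Mb from the Myc start with 100 kb to each side, lay inside this stretch and had no peak in either list.

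The blood enhancer zone was taken as 1.7 Mb from the Myc start with 100 kb to each side (chr15:63585341-63785341). It held 1 peak (683 bp, 0.341% of the zone) in the BN1 list and 2 peaks (1649 bp, 0.824%) in the control list. Of the whole window, 0.447% was covered in the BN1 list and 1.64% in the control list. Whether these counts are unusual for a stretch of this length was not tested. A peak at 1.719 Mb was shared (chr15:63704111-63704793 labelled BN1, chr15:63704278-63704823 labelled control), with summits 125 bp apart. Shared peaks overlap by definition, so the nearness of these summits is in part set by that rule. The other control peak, at 1.632 Mb (chr15:63616303-63617405, 1103 bp, fold enrichment 5.80), lay 86705 bp from the nearest BN1 peak.

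The shared blood enhancer peak was described within each list, since ranks from lists of unequal length show no change in strength. In the BN1 list it had a fold enrichment of 2.55 and a −log10 q of 1.56, at percentile 0.488 of the list by fold, and so was among the weakest calls. In the control list it had a fold enrichment of 9.28 and a −log10 q of 17.0, at percentile 66.9. At a −log10 q of at least 5 the zone held no BN1 peak and both control peaks, and with each list limited to its 10000 firmest peaks it held none. With 50 kb instead of 100 kb to each side the direction of the length difference turned, BN1 minus control being 137 bp instead of -966 bp, because the zone then holds the shared peak alone and the BN1 peak is the wider one. The zone therefore gives no firm difference in acetylated length.

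Shared peaks lay mostly beyond the enhancers, with 8 of the 10 labelled BN1 and 9 of the 11 labelled control there. Of 37 annotated genes of the window, 28 had no region within 10 kb in either list. Among them were 11 of 15 lncRNA genes, beside 8103 of 12727 lncRNA genes over the whole annotation. For protein-coding genes it was 4 of 7 in the window, beside 8281 of 21887 over the whole annotation. The gasdermin C genes Gsdmc, Gsdmc2, Gsdmc3 and Gsdmc4, which encode pore-forming proteins, had no peak in either list. Cyrib, which encodes a binding partner of RAC1 that restrains actin-driven protrusion, had 7 peaks (6887 bp) in the BN1 list and 9 (9982 bp) in the control list, of which 5 were shared in each. Scaled per Mb of covered length, Cyrib turned to 360.1 bp in the BN1 list and 321.7 bp in the control list. Its upper end held the strongest peak of the window in both lists, 2319 bp wide with fold enrichment 22.9 (percentile 89.0) labelled BN1 and 3426 bp with 27.4 (percentile 96.8) labelled control.

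Asap1, which encodes a GTPase-activating protein for ARF that acts at the membrane and actin skeleton, had 5 peaks (3834 bp) in the BN1 list and 13 (13006 bp) in the control list. The length difference was 3.39-fold in bp and 2.09-fold per Mb. Of these peaks 2 were shared in the BN1 list and 3 in the control list. The widest, near 2327 kb from the Myc start, was 2599 bp in the BN1 list (chr15:64311202-64313800) and met control peaks of 1864 and 454 bp. The upper end of Asap1 had a peak of 384 bp in the BN1 list only (chr15:64382329-64382712), weak within its list (fold enrichment 3.01, percentile 3.0). The lower part of the gene had a control-only group of 5 peaks near 2200.41 kb with 3451 bp covered.

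**Figure D3:**
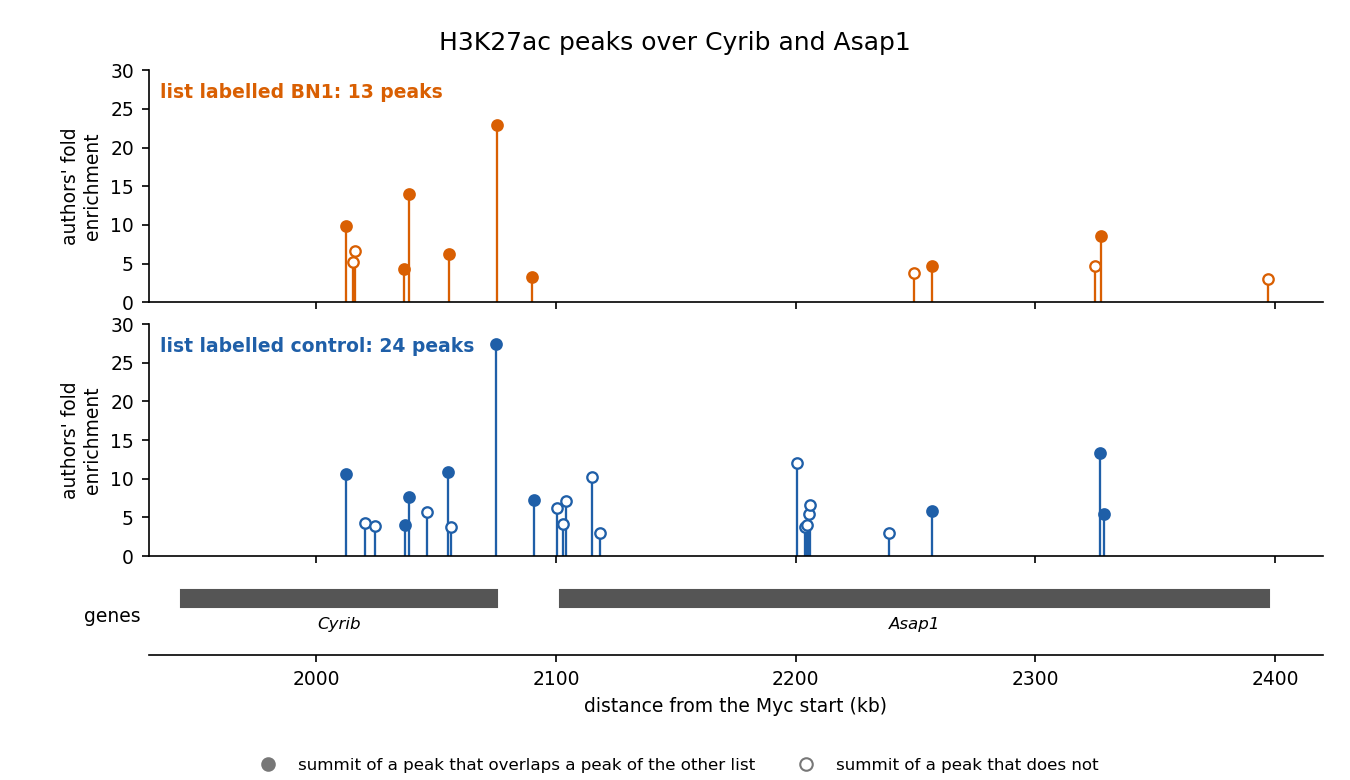
Summits of the H3K27ac peaks over Cyrib and Asap1 by distance from the Myc start (kb) and by the authors' fold enrichment (heights may be compared within a panel), for the BN1 list (above, 13 peaks) and the control list (below, 24 peaks). Filled points, shared between the lists, gather over Cyrib, and open control points gather toward the Cyrib side of Asap1.

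Shared peaks were also compared as pairs, which overlap by definition, so the nearness of their summits is in part set by that rule. Distances between summits over the whole lists are not given here. There were 12 overlapping pairs in the window, and the BN1 peak was the wider one in 6 and the control peak in the other 6. The 6 pairs with the wider BN1 peak hold only 4 BN1 peaks, since 2 of these overlapped 2 control peaks each, the smaller of them by 32 and by 127 bp. Summits were a median of 280.5 bp apart (22 to 1952 bp), and 8 pairs had summits within 500 bp. A pair in Cyrib near 2013 kb had summits 22 bp apart, with widths of 1412 bp labelled BN1 and 1199 bp labelled control. A second pair with the same distance lay near 2039 kb, 1748 bp wide in the BN1 list and 1336 bp in the control list. The Myc pair, at 825 bp, was thus farther apart than most.

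By zone, the ratio of lengths varied widely. Control over BN1 was 1.45 at Cyrib, 2.46 at Myc, 2.41 in the blood enhancer zone, 3.39 at Asap1 and 12.7 over Pvt1, whereas the whole lists differed 1.62-fold. Per Mb of covered length the same ratios were 0.893 at Cyrib, 1.51 at Myc, 1.49 in the blood enhancer zone, 2.09 at Asap1 and 7.81 over Pvt1. Pvt1 and the stretch beyond it, without a BN1 peak, stood apart from the other zones on both scales. Myc with its flanks and the blood enhancer zone differed by less than the 2-fold rule once the lists were scaled. The measures are unlike, since the Myc zone takes in 10 kb to each side and Pvt1, Cyrib and Asap1 are the genes alone. Over the Myc gene alone 934 bp were covered in the BN1 list and 3206 bp in the control list, a larger ratio than with flanks. The scaled ratio of the Myc gene alone is not given here.

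**Figure D4:**
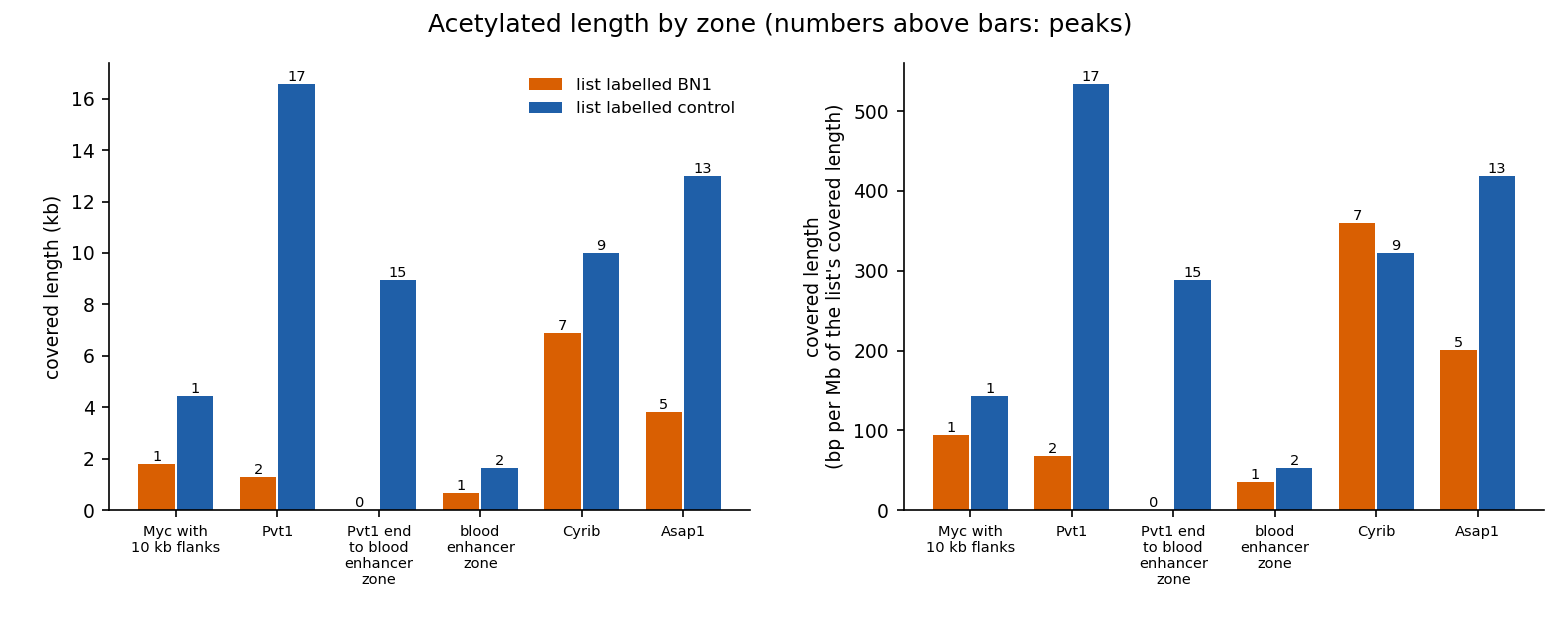
Acetylated length of 6 zones of the window in kb (left) and in bp per Mb of each list's covered length (right), with bars for the BN1 list (orange) and the control list (blue) and the number of peaks above each bar. The largest gap is over Pvt1 (1307 bp labelled BN1, 16556 bp labelled control), and Cyrib is the zone where the order turns with the scale.

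The partners and rivals of MYC were set beside it. Of 16 genes of the MYC network, 14 had a region, of which 2 were called longer in the BN1 list and 5, Myc among them, in the control list. Over all protein-coding genes with a region the shares were 10.5% called longer in BN1 and 33.9% in control, so these counts are near the background. The network median was -1106.5 bp (BN1 minus control) but 13.6 bp per Mb, beside -457 bp and 10.2 bp per Mb over all genes. Mycn and Mycl, the paralogs of Myc, had no region in either list. Per Mb, 3 of the 14 (Max, Mxd1 and Mxd4) were called longer in BN1 and none in control, beside 19.0% of all protein-coding genes with a region in BN1 and 22.8% in control.

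Mxd1 and Mxd4 were the network genes called longer in the BN1 list in bp. Mxd1, which competes for MAX and rises in differentiating myeloid cells, had 6388 bp labelled BN1 and 2016 bp labelled control. Mxd4, of the same family, had 3503 bp labelled BN1 and 1749 bp labelled control. On the other side, Mlx, the MAX-like partner of the glucose-sensing factors, had 2266 bp labelled BN1 and 5025 bp labelled control. Its partner Mlxip had 1898 bp labelled BN1 and 4422 bp labelled control. Neither of these was called per Mb, nor were Zbtb17 and Mycbp2, which follow. Zbtb17 (MIZ1, through which MYC represses genes) had 1787 bp labelled BN1 and 4097 bp labelled control. Mycbp2, a ubiquitin ligase, had 1189 bp labelled BN1 and 2730 bp labelled control. All of these had an end region in both lists, so the difference was one of length. Max itself had 4770 bp labelled BN1 and 3189 bp labelled control and was called longer in BN1 per Mb (249.4 bp labelled BN1, 102.8 bp labelled control) but not in bp.

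Widely used MYC targets of growth and division were set beside all genes in the same way. Of 24 targets with a region, 1 was called longer in the BN1 list and 7 in the control list, beside 10.5% of all genes in BN1 and 33.9% in control, with a median of -675.5 bp and 9.60 bp per Mb. Per Mb, 1 was called longer in BN1 (all genes 19.0%) and 4 in control (all genes 22.8%). Cdk4, a G1 cyclin-dependent kinase, had 936 bp labelled BN1 and 5124 bp labelled control. Ccnd2 (cyclin D2) had 338 bp labelled BN1, away from its ends, and 3223 bp labelled control. The neighbours Nme1 and Nme2, nucleoside diphosphate kinases that share regions, had 1804 bp (Nme1) and 1150 bp (Nme2) labelled BN1, and 5242 bp (Nme1) and 3884 bp (Nme2) labelled control. Per Mb, Nme2 was called longer in control and Nme1 was not. Nolc1, a nucleolar protein, was the only target called longer in BN1 (1223 bp, against 432 bp labelled control).

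Of 14 genes whose products act on the Myc gene or protein, 1 was called longer in the BN1 list in bp, 2 in the control list, and 11 were not called. Over all protein-coding genes with a region the shares in bp were 10.5% in BN1 and 33.9% in control. The calls changed with the scale. Smarca4, which encodes BRG1, the BAF complex ATPase bound at the blood enhancers in mouse leukaemia, had 6376 bp labelled BN1 and 2104 bp labelled control. Skp2, a ubiquitin ligase subunit that acts on MYC, had 754 bp labelled BN1 and 3592 bp labelled control, and Smarcd1, a BAF subunit, had 798 bp labelled BN1 and 2700 bp labelled control. Per Mb, 5 of the 14 were called longer in BN1 and 2 in control, beside the 19.0% and 22.8% of all genes called that way in BN1 and in control.

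**Figure D5:**
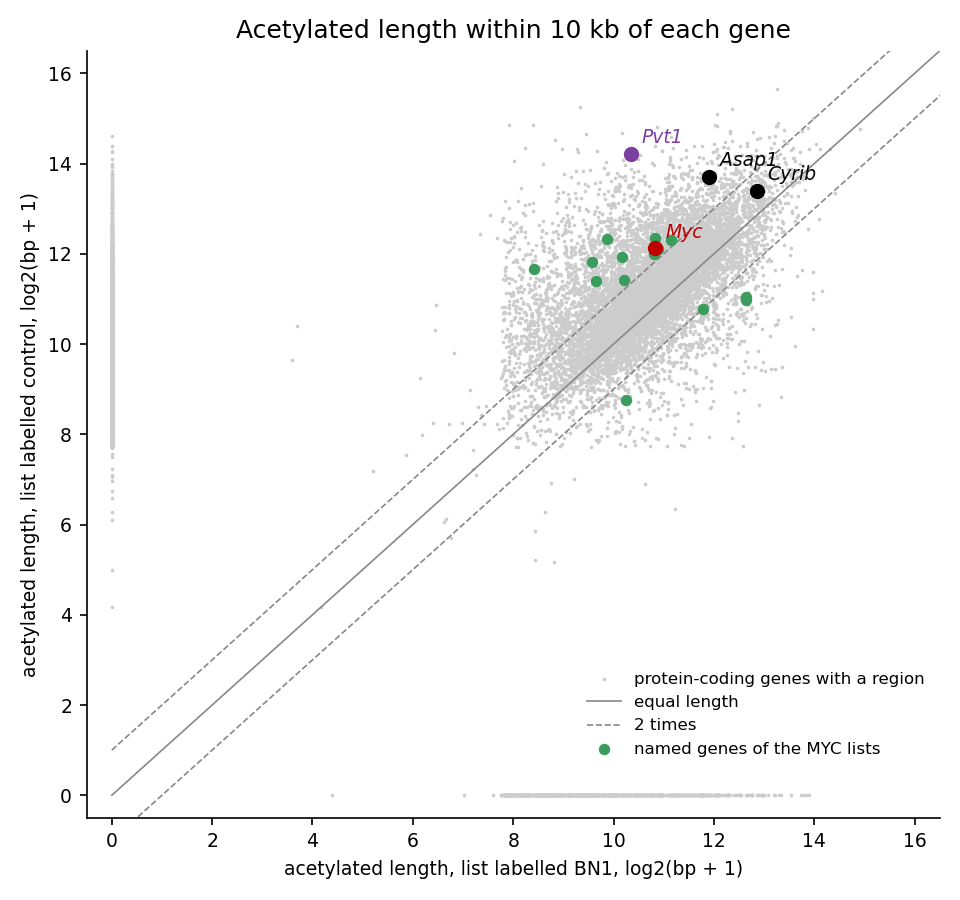
Acetylated length within 10 kb of each gene, as log2(bp + 1), in the BN1 list (x axis) and the control list (y axis), for protein-coding genes with a region (grey), the named genes of the MYC lists (green), and Myc, Pvt1, Cyrib and Asap1. Pvt1 lies far above the dashed line of a 2-fold difference, Myc lies just above it, and Cyrib lies below it.

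By these lengths alone other genes lay close to Myc. Likeness was measured as the distance between log2(bp + 1) values over the 2 lists. The 5 nearest genes were Usp47 (distance 0.0207), Rhobtb1 (0.0277), Mmp2 (0.0301), Itga6 (0.0382) and Rdh5 (0.0387). Usp47, for example, had 1785 bp labelled BN1 and 4472 bp labelled control. In all, 98 genes lay within a distance of 0.2, beside 13606 protein-coding genes with a region. The pair of lengths at Myc is thus not found at Myc alone. How many such neighbours other genes have is not given here.

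Markers of blood cell types differed between the libraries as well, and their part in the result at Myc was not tested. Over all protein-coding genes with a region 10.5% were called longer in BN1 and 33.9% in control. Of 16 neutrophil markers 13 had a region, of which 10 were called longer in BN1 and 1 in control (summed length 53081 bp labelled BN1, 12992 bp labelled control), with Mpo, Elane and Prtn3 at 0 in both lists. Of 14 B lymphoid markers, 11 were longer in BN1 and 1 in control (60441 bp labelled BN1, 12978 bp labelled control), and Cd79b, Ebf1, Pax5, Vpreb3 and Pou2af1 were at 0 in the control list. Of 12 erythroid markers 10 had a region, with 6 longer in BN1 and none in control (20910 bp labelled BN1, 8643 bp labelled control) and with Gata1 and Alas2 at 0 in both. The libraries thus differed in markers of several lineages and not at Myc alone.

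Monocyte and macrophage markers went the other way, and the counts that follow stand beside the same shares of all genes, 10.5% in BN1 and 33.9% in control. Of 14 markers 13 had a region, of which none was longer in BN1 and 9 were longer in control (19985 bp labelled BN1, 62360 bp labelled control), and Adgre1 and Cx3cr1 were at 0 in the BN1 list. Of 12 T and NK markers only 6 had a region, with 3 longer in BN1 and 2 in control (9392 bp labelled BN1, 10890 bp labelled control), and Cd3e, Cd8a, Zap70, Bcl11b, Tcf7 and Ncr1 were at 0 in both. Of 13 progenitor markers 9 had a region, with 3 longer in BN1 and 5 in control (34947 bp labelled BN1, 27284 bp labelled control). Those longer in BN1 were Erg, Flt3 and Hlf, and those longer in control were Cd34, Ptprc, Meis1, Hoxa9 and Hoxa10. Of the BN1 sum 15215 bp lay at Erg, which was at 0 in the control list, and the median difference of the list was -735 bp. The progenitor genes Kit, Gata2, Mecom and Mycn were at 0 in both lists. Kit, the gene of the sorted receptor, thus had no region in either list. Ptprc, which encodes CD45 and is counted among these progenitor markers, had 2958 bp labelled BN1 and 6634 bp labelled control.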

How the data were processed

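H3K27ac fanChIP libraries of BN1 and control bone marrow cells were analysed from 1 narrowPeak list each, whose columns were read in the usual order because the lists have no header. The submitters' processing notes list, without role or order, MACS3 3.0.1, deepTools 3.5.1, Picard 3.2.0 and Bowtie2 2.5.4, beside the build mm10 (GRCm38). For the calling threshold, the use of input and any pooling, the answer is not given in the sources used here. Per deposited peak there are the authors' fold enrichment (a linear ratio), −log10 p and −log10 q. The deposited score, which equals 10 times the −log10 q to within 1 in 100% of peaks, was not used. In both lists the smallest −log10 q was close to 1.3 (BN1 1.30, control 1.32).

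Positions are 1-based. Peaks did not overlap within a list. Gene ends came from RefSeq (GRCm38.p6), without strand, and the lower end of Myc was taken as its start. Peaks went to the zone that holds their summit, while lengths are bp under peaks within the zone. Promoter sequences of Myc were not used here. Functions for overlap and length were tested on simulated data.

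The members and gene lists were chosen with earlier results of these data known. Named genes were those of the window, up to 4 members of each MYC list per direction with the largest difference among those called longer, the 5 genes nearest to Myc by length, and Kit and Ptprc. Max, the progenitor markers called longer, the gene families, markers at 0 and the paralogs were named with their values known. Not every marker at 0 is reported here. The alternatives tried were a stricter −log10 q (5 and 10), lists of equal length, the top 10000 peaks, the scale, the overlap rule, zone widths (50 and 150 kb) and flanks (0 and 50 kb). Series of neighbouring unshared peaks were counted, with their alternatives, after the data had been seen. Binomial intervals are Clopper-Pearson. Python 3.11.15, numpy 2.4.6, pandas 2.3.3, scipy 1.17.1 and matplotlib 3.10.9 were used.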

Additional observations from a re-analysis of the deposited data

How the results depend on the processing

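With 1 library per group no replicate could be left out. No paired analysis was possible because each group has a single library. Shares were taken as unmoved within their exact interval, and counts and lengths within 1.5 times. Shares of shared window peaks stayed within it under all 6 alternatives each (47.1 to 80.0% labelled BN1, 13.6 to 26.7% labelled control). The BN1 interval, 32.9 to 81.6% for 17 peaks, is so wide that staying within it says little. Shares of the whole lists under these alternatives are not given here. Of 24 alternatives of length differences (BN1 minus control), 22 were below 0, 1 was 0 and 1 was above 0.

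Keeping peaks with a −log10 q from 5 up, the BN1 list had 11 window peaks, and the blood enhancer zone differed by -1649 bp. At 10 or more there were 8 peaks labelled BN1 and 25 labelled control, and the differences were -26752 bp in the window and -546 bp in the zone. Limited to the 10000 firmest peaks per list, there were 5 peaks labelled BN1 and 15 labelled control, with differences of -19020 bp in the window, -8897 bp over Pvt1 and 0 bp in the zone. Per Mb of covered length they were -1029.8 bp in the window, -465.2 over Pvt1, -48.6 at Myc and -17.4 in the zone. With 50 kb to each side the zone reversed to 137 bp. With 50 kb flanks Myc differed by -5195 bp, since the flank then reaches into Pvt1. The series of unshared control peaks, a measure whose alternatives were chosen after seeing the data, held 15 peaks at that −log10 q minimum of 10 and 7 among the 10000 firmest. Unknown depth limits which weak regions, such as the BN1 blood enhancer peak, could be called.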
